A study of Homo sapiens with 6 samples.

Results

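The integrated stress response and the supply of amino acids were followed through 46 genes in THP-1 cells, an established human line that grew out of a monocytic leukaemia. The genes were listed by name as genes of the pathway, with earlier results of these data known. Matching was by Ensembl identifier, and all 46 were found among 78686 deposited genes. They comprise 12 regulators and other response genes, 14 enzymes of amino acid and one-carbon metabolism, 9 amino acid transporters, and 11 genes for tRNA synthetases and tRNA export. Both groups of cells had been stably transduced, one to overexpress PTX4 (PTX4-OE, 3 libraries) and one to carry an empty vector (EV, 3 libraries). PTX4 codes for a pentraxin, a secreted protein related to C-reactive protein. The labels name no separate batches and do not say what libraries with the same replicate number share. The sources used here give neither the promoter of the construct nor whether either line is 1 clone. The study made a single comparison, of PTX4-OE with EV.

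In the integrated stress response, kinases that sense amino acid shortage, unfolded proteins in the endoplasmic reticulum, viral RNA or haem deficiency phosphorylate the initiation factor eIF2. General translation then falls, while the mRNA of the transcription factor ATF4 is translated more. ATF4, as a dimer with C/EBP proteins, binds the C/EBP-ATF response element and raises genes for amino acid uptake, serine and one-carbon synthesis, and tRNA charging. Part of the control lies in translation, which RNA levels do not report.

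The libraries held 29670641 to 37718207 expected counts, which are read counts that may be fractional. Levels compared between libraries are in CPM, the counts scaled to a common library size with TMM factors. Levels compared between genes are in TPM, which corrects for gene length. PTX4 stood at 685, 462 and 404 CPM in PTX4-OE libraries and at 0, 0.102 and 0.118 CPM in EV libraries, which matches the labels. Of 12 monocytic markers 10 were over 1 TPM in every library, and their sum was 3006 to 3283 TPM in PTX4-OE and 2968 to 3203 TPM in EV. The 5 T cell markers were listed at 0 throughout, and the summed B cell, erythroid, epithelial and fibroblast markers were at most 2.07 TPM in PTX4-OE and 2.01 TPM in EV. The share of mitochondrial genes was 2.79% in PTX4-OE replicate 1, against 4.97% and 5.39% in the other PTX4-OE libraries and 4.75% to 5.91% in EV. Libraries of replicate numbers 1 and 3 deviated from their group means together, with correlations of 0.632 and 0.698. For number 2 the correlation was 0.131, close to the 0.117 of PTX4-OE replicate 1 with EV replicate 2. A fit that takes the replicate numbers as pairs is given beside the fit without them.

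The response element is short, and its core can be read in the promoters themselves. RefSeq promoter windows (GRCh38.p14), which run from 250 bases before a gene's start to 50 after it, were matched for 37 of the 46 genes. The core searched was TGATGNAA on either strand, and a stricter form was TTGCATCA, which read on the other strand is TGATGCAA and so lies within the core. The core was found for 14 of 37 genes (37.8%), against 4.46% of all 27305 genes with a window. The stricter form was found for 9 of 37 (24.3%), against 1.08%. A gene counts as holding a form if any of its windows does. By window the core was in 16 of 59 (27.1%), against 3.62% of all 35116. The 46 genes were listed as genes of this pathway, known targets of ATF4 among them. An excess over all genes can therefore follow from the choice of the list and is no independent support for it. By role, the core was held by 5 of 8 transporters, 5 of 9 synthetase genes, 2 of 9 enzymes and 2 of 11 regulators. The 28 bases around the core are shown for the 2 genes of each role with the largest fitted change among those that hold it, 5′ to 3′ on the strand of the gene, with the core in capitals.
CHAC1, chr15:40953252-40953279, plus strand: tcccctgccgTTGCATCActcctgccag
CEBPG, chr19:33374061-33374088, plus strand: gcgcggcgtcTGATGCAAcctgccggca
ASNS, chr7:97872459-97872486, minus strand: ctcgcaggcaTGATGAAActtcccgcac
MTHFD1L, chr6:150866347-150866374, plus strand: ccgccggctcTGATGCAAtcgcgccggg
SLC1A5, chr19:46784894-46784921, minus strand: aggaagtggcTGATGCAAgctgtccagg
SLC7A1, chr13:29595664-29595691, minus strand: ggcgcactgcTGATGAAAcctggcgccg
GARS1, chr7:30594835-30594862, plus strand: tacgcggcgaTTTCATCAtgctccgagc
IARS1, chr9:92293693-92293720, minus strand: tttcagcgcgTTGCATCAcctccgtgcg

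CHAC1, IARS1 and GARS1 carry the core on the other strand, and ASNS, SLC7A1 and GARS1 carry it without the stricter form. Of the 14 sites, 11 began before the RefSeq start, and 11 lay within 100 bases of it. The site of CHAC1 was the farthest, 209 bases before the start. MTHFD1L has 4 windows, of which 3 hold the same site, at 129 and 90 bases before and 24 bases after their starts, and the counts above take the position at 129. At either of the other starts it would also lie within 100 bases. SLC1A5 and GARS1 also have more than 1 window, with 3 and 2. The sites shown for these genes lie well inside the genes as annotated in GENCODE. There SLC1A5 begins at 46788594 and GARS1 at 30580533. These matches describe the sequence and do not show that a factor binds there.

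**Figure D1:**
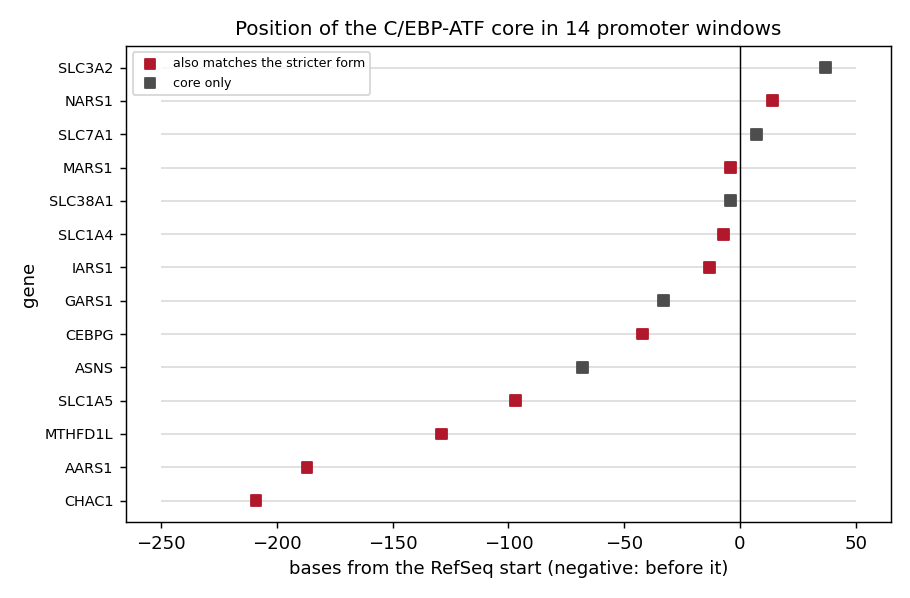
Position of the first base of the core TGATGNAA relative to the RefSeq start in the promoter windows of the 14 genes that hold it (x axis, bases, negative before the start; MTHFD1L at the start 129 bases after its site). Red squares also match the stricter form, grey squares do not, and 11 of the 14 sites as drawn lie within 100 bases of the start.

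The 46 genes were abundant in both groups. Mean TPM over the 6 libraries was over 100 for 29 of them, against 1.57% of all 78686 deposited genes. Of the deposited genes 17640 passed the filter on low counts used below, all 46 among them. This background thus holds many genes with few or no reads. ATF4, the transcription factor at the centre of the response, was the highest, at 1049, 1064 and 1157 TPM in PTX4-OE and 1008, 986 and 1157 TPM in EV, and ranked 120 to 136 among all genes. PHGDH, which makes the first committed step of serine synthesis, ranked 139 to 152. At the low end stood CTH, the enzyme that releases cysteine from cystathionine, at 6.65, 5.13 and 4.02 TPM in PTX4-OE and 5.32, 5.01 and 4.61 TPM in EV. Together the 46 genes took 1.01%, 0.949% and 0.990% of all TPM in PTX4-OE replicates 1 to 3. In EV replicates 1 to 3 they took 0.918%, 0.883% and 0.929%. On log2(TPM + 1) the median difference of PTX4-OE from EV over 14692 genes was 0.037. TPM as such thus lay higher in PTX4-OE, and this share does not by itself compare the groups.

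Most of the 46 genes stood slightly higher in PTX4-OE, and 0 of them passed the test. After the filter on low counts 17640 genes were tested, all 46 among them. With edgeR's quasi-likelihood test and Benjamini-Hochberg adjustment, 0 members were higher, where 0.00567% of all genes were, and 0 were lower, where 0.0% were. With pairs 0 members were higher and 0 lower as well, where 0.0283% and 0.232% of all genes were. DESeq2 and limma-voom called 0 of the 46, with and without pairs. At an unadjusted p under 0.05, edgeR had 0 members higher without pairs, against 0.238% of all genes. With pairs it had 13 higher, against 4.36% of all genes, and 0 lower, against 4.44%. The smallest adjusted p with pairs was that of PSPH, 0.0953.

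The direction was shared more than the size, in a list made with earlier results of these data known. A positive fitted log2 fold change was found for 45 of the 46 genes, against 53.0% of all genes tested, and their median was 0.085, a level 6.09% higher in PTX4-OE, against a median of 0.0077 over all genes. The range over the members ran from -0.030 for NUPR1 to 0.23 for PSPH. The signs of genes measured in the same libraries are not separate observations. Without PTX4-OE replicate 1, 30 of the 46 genes were positive. Within the pairs, 29 of 46 were higher in PTX4-OE in all 3, against 16.4% of all genes, and 0 were lower in all 3, against 14.1%. The 3 PTX4-OE libraries all lay above the 3 EV libraries for 2 genes, SLC6A9 and ALDH1L2, which is 4.35% of the members and close to the 2.07% of all genes. For 0 members did they all lie below, against 2.04%. RNA from bulk cells cannot tell more cells with a high level from more RNA per cell.

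Most of the 12 monocytic markers leaned the opposite way to the 46 genes, while their summed TPM, given above, overlapped between the groups. Of the 12 markers 9 had a negative log2 fold change, with a median of -0.040 (-0.075 with pairs), and 6 were lower in PTX4-OE in all 3 pairs. MPO, the myeloperoxidase of myeloid granules, stood at 11.2, 13.3 and 8.76 CPM in PTX4-OE and at 15.5, 19.9 and 12.9 CPM in EV. CSF1R, the receptor for macrophage colony-stimulating factor, stood at 45.6, 36.5 and 27.0 CPM in PTX4-OE and at 55.1, 46.8 and 32.3 CPM in EV. Both fell in the edgeR test with pairs, by 0.54 (SE 0.079, adjusted p = 0.00859) for MPO and by 0.30 (SE 0.056, adjusted p = 0.0424) for CSF1R on the log2 scale, with overlapping groups. Without pairs 0 markers passed. With pairs 2 of the 12 were lower and 0 higher, against 0.232% and 0.0283% of all genes, and these 2 are named because they passed. The part of these markers in the values of the 46 genes was not tested.

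Highly expressed genes as a whole leaned the same way by less in the fit, though not in pair 2. Among 2154 tested genes over 100 CPM, a cutoff chosen after the values were seen, 61.3% had a positive log2 fold change, and the median was 0.017. All 37 members over 100 CPM had a positive one, with a median of 0.086. In pair 1 the median of these 37 was 0.12, against 0.066 for the 2154 genes. In pair 2 it was 0.051 against -0.022, and in pair 3 it was 0.059 against 0.0024. The members over 100 CPM thus had the higher median in each pair, and the abundant genes of pair 1 were shifted up as a whole.

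**Figure D2:**
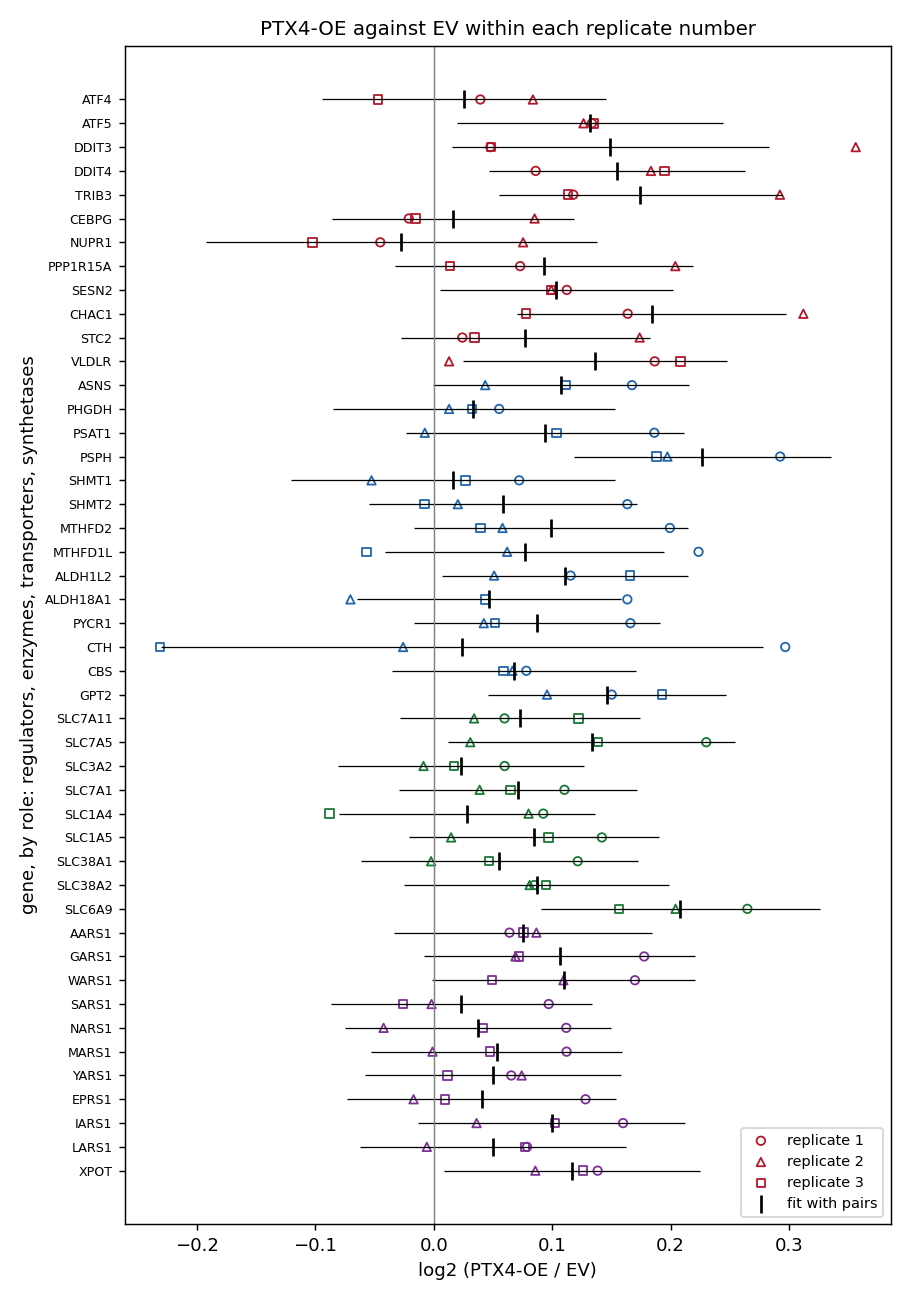
PTX4-OE minus EV on the log2 scale within each replicate number (open circles, triangles and squares for replicates 1, 2 and 3) for the 46 genes, with the fitted value of the test with pairs (black bar) and its 95% confidence interval (line). Of the genes, 29 have all 3 points right of 0 and none has all 3 left of it.

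The regulators had a median of 0.12, with 11 of 12 positive, 9 higher in all 3 pairs and 7 with an unadjusted p under 0.05 with pairs. This was the largest median of the 4 roles in the fit and in pair 2, at 0.15, while in pair 1, at 0.080, it was the smallest, and in pair 3 the transporters had the largest. ATF4 itself (ENSG00000128272.19, chromosome 22, 39519695 to 39522683, plus strand, GRCh38) stood at 939, 951 and 967 CPM in PTX4-OE and at 914, 897 and 999 CPM in EV. The groups overlapped, and EV replicate 3 was the highest library. Its log2 fold change was 0.024 (SE 0.091), and with pairs 0.025 with a 95% interval of -0.095 to 0.15. ATF5, a related bZIP factor that is also controlled through translation, stood at 728, 714 and 801 CPM in PTX4-OE and at 663, 654 and 729 CPM in EV, with pair differences of 0.13, 0.13 and 0.14. The 3 pairs of ATF5 were close to one another, while the groups overlapped, with replicate 3 the highest in both. In the annotation 19.5% of the exon bases of ATF5 lie opposite NUP62.

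CHAC1, TRIB3 and DDIT4, known targets of ATF4, had larger fitted differences than ATF4, and this contrast was not tested. They had the smallest p with pairs among the regulators. Of the other regulators, CEBPG and NUPR1, at 0.015 and -0.030, lay below ATF4, at 0.024, and the rest lay above it. Without PTX4-OE replicate 3 the log2 fold change of TRIB3 was -0.11. CHAC1, which degrades glutathione (chromosome 15, 40952962 to 40956512), stood at 88.4, 91.2 and 78.8 CPM in PTX4-OE and at 78.9, 73.4 and 74.7 CPM in EV. Only PTX4-OE replicate 3 and EV replicate 1 touched, and the log2 fold change was 0.19 (SE 0.097), or 0.18 (SE 0.053, edgeR adjusted p = 0.246) with pairs. TRIB3, a pseudokinase that restrains ATF4, stood at 482, 592 and 872 CPM in PTX4-OE and at 444, 483 and 806 CPM in EV. Replicate 3 of TRIB3 was the highest library of both groups, and the log2 fold change of 0.17 had an SE of 0.29 without pairs and 0.056 with them. The mTORC1 inhibitor DDIT4 stood at 383, 446 and 406 CPM in PTX4-OE and at 361, 393 and 355 CPM in EV.

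SESN2, a leucine sensor upstream of mTORC1, stood at 157, 166 and 169.7 CPM in PTX4-OE and at 145, 155 and 158 CPM in EV. VLDLR, a lipoprotein receptor, stood at 314, 268 and 249 CPM in PTX4-OE and at 276, 265 and 216 CPM in EV. Both were higher in each pair, by 0.099 to 0.11 for SESN2 and by 0.013 to 0.21 for VLDLR. DDIT3, which encodes the factor CHOP, differed by 0.048, 0.36 and 0.049 in pairs 1 to 3, so that pair 2 carried most of its log2 fold change of 0.15. In the annotation DDIT3 shares 27.2% of its exon bases with MARS1 on the opposite strand, and whether the counting used strand is not given, so reads of both cannot be told apart there. PPP1R15A, the phosphatase subunit that reverses eIF2 phosphorylation, and STC2, a secreted glycoprotein, were at 0.084 and 0.080. CEBPG, a partner of ATF4, and NUPR1, a small stress-induced nuclear protein, were at 0.015 and -0.030 and were lower in 2 of 3 pairs.

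All 14 enzymes had a positive log2 fold change, with a median of 0.089, and 8 were higher in all 3 pairs. PSPH, which catalyses the last step of serine synthesis (ENSG00000146733.14, chromosome 7, 56011051 to 56051604, minus strand), stood at 75.9, 69.3 and 56.3 CPM in PTX4-OE and at 62.0, 60.5 and 49.4 CPM in EV. The groups overlapped, replicate 3 was low in both, and every pair was higher, by 0.29, 0.20 and 0.19. Its log2 fold change was 0.23 (SE 0.15), a level 17.3% higher, and with pairs 0.23 (SE 0.051, edgeR adjusted p = 0.0953). Across the alternatives with pairs that adjusted p ran from 0.0511, without replicate 3, to 0.437, on log2(TPM + 1).

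The other enzymes of the serine pathway differed by less. PHGDH stood at 1218, 1172 and 932 CPM in PTX4-OE and at 1172, 1161 and 911 CPM in EV, a log2 fold change of 0.034 (SE 0.15). PSAT1, the transaminase between PHGDH and PSPH, was at 0.097, with -0.0075 in pair 2. The 3 enzymes act in 1 chain, and the highest in TPM, PHGDH, showed the smallest difference. The hydroxymethyltransferases SHMT1 and SHMT2, which pass a carbon unit from serine to folate, were at 0.016 and 0.060.

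In mitochondrial folate metabolism, MTHFD2 stood at 619, 554 and 597 CPM in PTX4-OE and at 539, 533 and 581 CPM in EV. ALDH1L2, which oxidises formyl-folate, stood at 268, 267 and 293 CPM in PTX4-OE and at 248, 258 and 261 CPM in EV. ALDH1L2 was the one enzyme whose groups did not overlap, with a log2 fold change of 0.11 (SE 0.090). MTHFD1L, which makes formate, differed by 0.22 in pair 1 and by -0.057 in pair 3. ASNS, the asparagine synthetase, stood at 505, 406 and 337 CPM in PTX4-OE and at 449.8, 394 and 312 CPM in EV. GPT2, the mitochondrial alanine transaminase, stood at 165, 150.2 and 128 CPM in PTX4-OE and at 149, 140.5 and 112 CPM in EV. For ASNS and GPT2 each pair was higher, and replicate 3 was the lowest library of both groups. A long noncoding RNA with a mean count of 284 overlaps 49.3% of the exon bases of ASNS. The remaining enzymes, of proline synthesis (ALDH18A1, PYCR1) and of cysteine synthesis (CBS, CTH), lay between 0.046 and 0.091.

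The 9 transporters were all positive, with a median of 0.074, and 6 were higher in all 3 pairs. SLC6A9, the glycine transporter GLYT1 (chromosome 1, 43991500 to 44031467), stood at 47.3, 44.04 and 47.1 CPM in PTX4-OE and at 39.4, 38.2 and 42.3 CPM in EV. Its groups did not overlap, and the log2 fold change was 0.21 (SE 0.093), or 0.21 (SE 0.055, edgeR adjusted p = 0.195) with pairs. SLC7A5, the light chain of the LAT1 exchanger for large neutral amino acids, stood at 894, 696 and 691 CPM in PTX4-OE and at 762, 681 and 628 CPM in EV. Its heavy chain SLC3A2 stood at 356, 317 and 330.4 CPM in PTX4-OE and at 342, 319 and 326 CPM in EV. The light chain differed by 0.14 (SE 0.14) and the heavy chain by 0.024 (SE 0.093), and the difference between them was not tested. SLC7A11, the light chain of the cystine-glutamate exchanger that shares this heavy chain, was at 0.074.

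The carriers SLC38A2 and SLC1A5, for glutamine and other neutral amino acids, had log2 fold changes of 0.087 each. SLC38A2 stood at 639, 668 and 816 CPM in PTX4-OE and at 603, 632 and 764 CPM in EV, with pair differences of 0.085, 0.081 and 0.095. SLC1A5 stood at 371, 308 and 264 CPM in PTX4-OE and at 336, 305 and 247 CPM in EV. SLC7A1, for cationic amino acids, stood at 212, 199 and 209 CPM in PTX4-OE and at 196, 193 and 199.8 CPM in EV. These 3 were higher in every pair while their groups overlapped. SLC1A4 and SLC38A1, for small neutral amino acids and glutamine, were at 0.030 and 0.056, each lower in 1 pair.

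The genes of tRNA charging had a median of 0.056, the smallest of the 4 roles in the fit, though not in each pair, with 11 of 11 positive and 6 higher in all 3 pairs. XPOT, the exporter of tRNA from the nucleus, stood at 569, 494 and 503 CPM in PTX4-OE and at 517, 465 and 461 CPM in EV. It had the largest difference of this role, 0.12 (SE 0.10), and was the 1 gene of the role with an unadjusted p under 0.05 with pairs. WARS1, for tryptophan, stood at 577, 503 and 479 CPM in PTX4-OE and at 513, 466 and 462 CPM in EV. GARS1, for glycine, stood at 778, 701 and 594 CPM in PTX4-OE and at 688, 668 and 565 CPM in EV. IARS1, for isoleucine, stood at 615, 565 and 621 CPM in PTX4-OE and at 551, 551 and 578 CPM in EV, and AARS1, for alanine, at 592, 559.9 and 581 CPM in PTX4-OE and at 566, 527 and 551 CPM in EV. These 5 genes were higher in each pair with overlapping groups. The synthetases SARS1, NARS1, EPRS1, LARS1, MARS1 and YARS1 lay between 0.026 and 0.056.

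**Figure D3:**
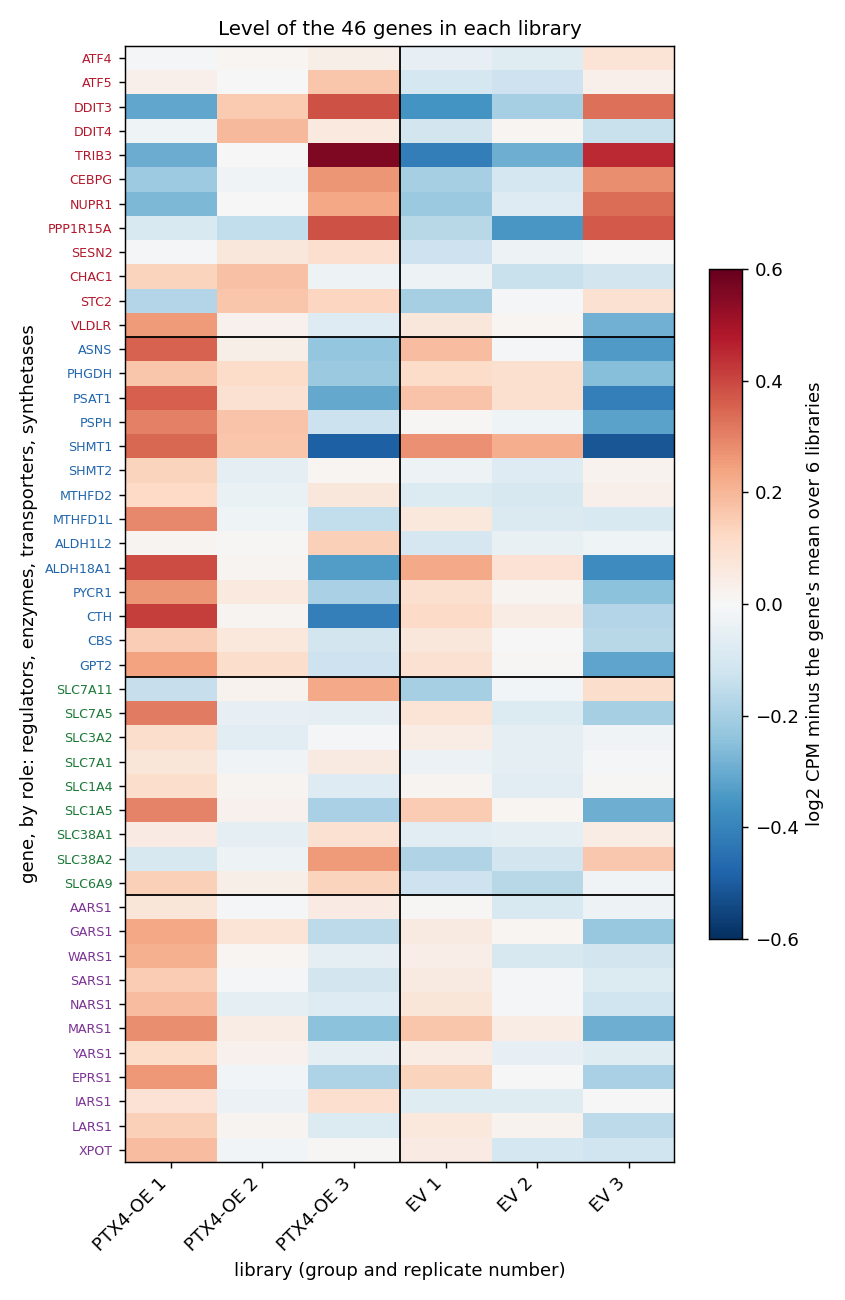
Level of each of the 46 genes in each library as log2 CPM minus the gene's own mean over the 6 libraries (colour, red higher), with PTX4-OE libraries left of EV libraries and genes grouped by role from regulators at the top to synthetases at the bottom. TRIB3 is highest in replicate 3 of both groups, and SHMT1 is lowest there.

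The 46 genes varied with the replicate number in both groups. Replicate 3 and replicate 1 differed in the same direction in PTX4-OE and in EV for 41 of 46 genes (89.1%), close to the 84.1% of all genes tested. Over all 17640 genes tested, 9045 were higher in replicate 3 in PTX4-OE and 9024 in EV. Of the regulators, 9 of 12 were higher in replicate 3 in both groups, with medians of 0.22 in PTX4-OE and 0.21 in EV. Of the enzymes, 11 of 14 were lower there in both groups, with medians of -0.43 in PTX4-OE and -0.34 in EV, as were 10 of 11 synthetase genes. Of the 9 transporters, 3 were higher and 4 lower in both groups, with medians of -0.020 in PTX4-OE and 0.026 in EV. No test was made between the roles. TRIB3 was 1.81-fold higher in replicate 3 than in replicate 1 in PTX4-OE and 1.82-fold higher in EV, and SHMT1 was at 0.561 and 0.579 of its level in PTX4-OE and EV. ATF4 was at 1.03 and 1.09 in PTX4-OE and EV. What the replicate numbers share is not given in the labels.

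**Figure D4:**
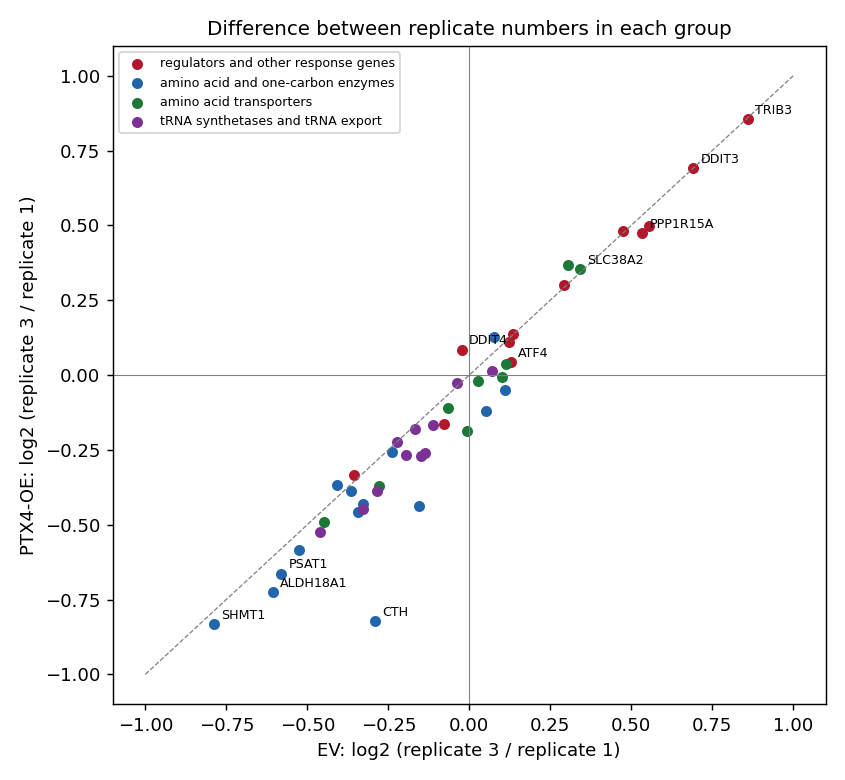
Replicate 3 against replicate 1 on the log2 scale within PTX4-OE (y axis) and within EV (x axis) for the 46 genes, coloured by role; the dashed line marks equal differences. TRIB3 and DDIT3 lie at the upper right, SHMT1 and most enzymes at the lower left.

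The size of the shift depended on which libraries were in the fit. Without PTX4-OE replicate 1, the library with the low mitochondrial share, the median of the 46 genes was 0.044 and 30 were positive, and the median of the enzymes was -0.022. Without EV replicate 3 the enzyme median was 0.0007 and 33 of the 46 were positive, and without PTX4-OE replicate 3 the enzyme median was 0.20. The regulators had medians of 0.019 without PTX4-OE replicate 3 and 0.0074 without EV replicate 1. These fits leave the replicate numbers unbalanced between the groups. With pairs and without replicate 1, the median was 0.062 and 39 of 46 were positive. With mitochondrial genes and PTX4 left out of the scaling and the test, the median was 0.081, close to the 0.085 with them. In DESeq2 and limma-voom, with and without pairs, 45 of 46 were positive.

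Other genes of the pathway did not all lean the same way. The sensing and control arm, 17 genes for the eIF2 kinases, eIF2, eIF2B and their regulators, had 8 positive values and a median of -0.0098. GCN1, which activates the amino acid sensing kinase, was at 0.086 and lower in pair 2. EIF2AK2, the kinase for double-stranded RNA, was at 0.078, with -0.080 and -0.011 in pairs 1 and 2 and 0.42 in pair 3. Of 17 tested genes that are also linked to ATF4, 15 were positive, with a median of 0.064, and 0 passed the test in either fit. Among them PCK2, the mitochondrial enzyme that turns oxaloacetate into phosphoenolpyruvate, stood at 395, 342 and 283 CPM in PTX4-OE and at 342, 307 and 263 CPM in EV. GDF15, a secreted stress cytokine, stood at 7.71, 9.82 and 20.5 CPM in PTX4-OE and at 7.62, 7.46 and 15.6 CPM in EV. PCK2 was higher in each pair by 0.11 to 0.21, and GDF15 differed by 0.016 in pair 1 and by 0.39 and 0.40 in pairs 2 and 3.

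Synthetases outside the 46 genes had smaller medians. The 13 other cytosolic synthetase genes and their scaffold proteins had a median of 0.0023 with 7 positive, and the 17 mitochondrial synthetases a median of 0.036 with 11 positive. CARS1 and AIMP1 were at 0.068 and -0.067, and AARS2 and CARS2 at 0.11 and -0.081. Of 20 tested genes of the folate and methyl cycles 13 were positive, with a median of 0.019. GART, an enzyme of purine synthesis, was at 0.11 and AMT, of the glycine cleavage system, at -0.26. In these lists 0 genes passed in either fit.

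Amino acid transporters outside the 46 genes leaned the other way. Of 15 tested, 5 were positive and the median was -0.073. SLC36A1, the proton-coupled carrier of lysosomes, stood at 29.2, 33.0 and 32.3 CPM in PTX4-OE and at 37.1, 38.2 and 38.1 CPM in EV. SLC6A6, the taurine transporter, stood at 53.7, 53.8 and 51.8 CPM in PTX4-OE and at 59.6, 68.3 and 56.6 CPM in EV. For both, all PTX4-OE libraries lay below all EV libraries, which is 2 of 15 (13.3%), against 2.04% of all genes. These 2 were named for the smallest p with pairs in this list. Neither passed the edgeR test with pairs, with log2 fold changes of -0.26 (SE 0.059, adjusted p = 0.0949) and -0.21 (SE 0.056, adjusted p = 0.207).

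In the list for glutathione and cysteine handling, 6 of 12 were positive with a median of -0.018 without pairs, where 0 passed. With pairs 4 of 12 were positive with a median of -0.026, and 1 passed. GGT1, which breaks down glutathione outside the cell, stood at 14.8, 17.3 and 15.4 CPM in PTX4-OE and at 21.6, 22.1 and 19.6 CPM in EV. It fell with pairs, with a log2 fold change of -0.42 (SE 0.072, edgeR adjusted p = 0.0254), and did not pass without pairs, where its log2 fold change was -0.42 (SE 0.11). GSS, the glutathione synthetase, was higher in each pair by 0.11 to 0.23 and did not pass. GGT1 and CHAC1 both act on glutathione, from opposite sides of the plasma membrane, and stood in opposite directions. CHAC1 passed in neither fit, and this contrast was not tested.

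**Figure D5:**
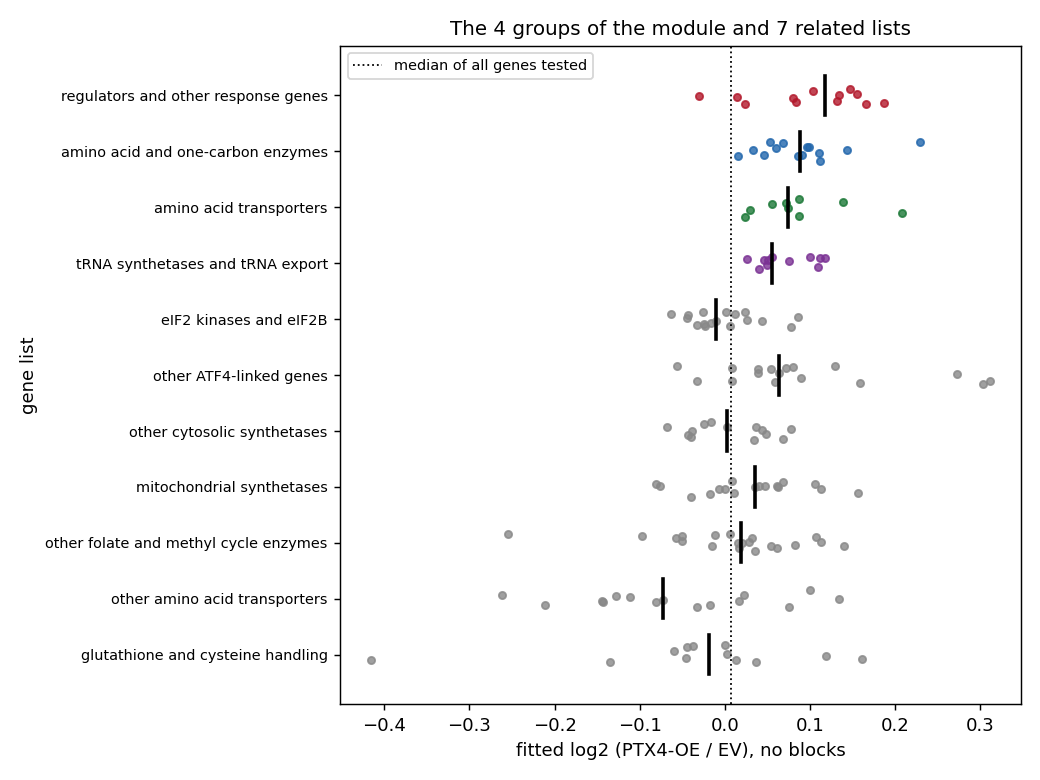
Fitted log2 fold change of PTX4-OE over EV without pairs (x axis) for each tested gene (points, spread vertically for legibility) of the 4 roles and of 7 related lists, with the median of each list (black bar) and that of all genes tested (dotted line). The medians of the 4 roles run from 0.056 to 0.12, and that of the other amino acid transporters is -0.073.

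The log2 fold changes of genes with and without the core in the promoter overlapped. The 14 genes with the core had a median log2 fold change of 0.074 and a range of 0.015 to 0.19. The 23 genes whose window lacks it had a median of 0.097 and a range of 0.016 to 0.21. CEBPG and CHAC1, shown above with the stricter form, were at 0.015 and 0.19. The windows hold only 250 bases before and 50 after a start, so genes without the core there may hold it elsewhere. No test was made of this split.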

How the data were processed

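Poly(A) RNA of 6 THP-1 libraries, 3 PTX4-OE and 3 EV, was analysed. The deposited expected counts, 7.94% of them not whole, were made by the authors with STAR and featureCounts on GRCh38, and FastQC 0.11.5 is also named, per the submitters' processing notes. Settings, strandedness and annotation release were not given there. The authors also deposited TPM values, scaled to the same total in each library. FPKM values were not used. The labels call the replicates biological and name no separate cultures, so p-values measure the spread between these libraries, which may be technical.

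Gene names and positions came from GENCODE release 44. The members and lists were chosen with earlier results of these data known. Expected counts were rounded and went into edgeR 4.0.16 under R 4.3.3 (filterByExpr, TMM, quasi-likelihood test, Benjamini-Hochberg adjusted p under 0.05). Each standard error is the log2 fold change over the root of F, and pair differences from log2 CPM with a prior count of 2. Alternatives used DESeq2 1.42.0 and limma 3.58.1, limma also on log2(TPM + 1). The code was tested on simulated data. Python 3.11.15, pandas 2.3.3 and matplotlib 3.10.9 were also used.

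Whether replicate numbers pair the libraries was decided from the correlation of deviations from group means, which was 0.632, 0.131 and 0.698 for numbers 1, 2 and 3, all over 0.1. For unlike numbers it ran from -0.642 to 0.117, so the highest of these was also over 0.1 and close to that of number 2. Named in full were, per role, the 4 genes with the smallest p in each fit, the most abundant gene, any gene that passed, and ATF4. In the other lists these were the 2 with the smallest p with pairs and any that passed. No libraries agreed within sampling noise, with a chi-square per degree of freedom of at least 12.3 within groups. Counts were fractional in 1 or more libraries for 12 members, among them CBS, ATF5, TRIB3 and MTHFD2, and how reads shared by similar genes were divided is not given. In GENCODE 20 members share exon bases with another gene, such as ASNS with a long noncoding RNA (49.3% of its exon bases) and ATF5 with NUP62 on the opposite strand (19.5%).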

Additional observations from a re-analysis of the deposited data

How the results depend on the processing

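Across 22 alternatives, of which 4 with pairs were chosen after seeing the data, 0 members were called in any. Of 24 named genes 17 kept their direction in every alternative. The other 7 changed it when libraries were left out: over these fits ASNS ran from -0.042 to 0.23, PHGDH from -0.075 to 0.14, SLC1A5 from -0.039 to 0.19, SLC3A2 from -0.014 to 0.051, SLC38A2 from -0.035 to 0.20, TRIB3 from -0.11 to 0.48 and ATF4 from -0.0064 to 0.073, with -0.0021 in the fit with pairs without replicate 2. Over the fits that leave out libraries, the median of all members ran from 0.044 to 0.0896 without pairs and from 0.0616 to 0.0904 with them, of the regulators from 0.0074 to 0.16 and of the enzymes from -0.022 to 0.20, and the cause was not tested. On log2(TPM + 1) the median of the members was 0.11, where that of all genes was 0.037.

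Over all genes the fit without pairs called 1 higher (PTX4) and 0 lower, at an unadjusted p under 0.05 42 and 89. With the replicate block it called 5 and 41. With the block and without replicate 1, 2 or 3 it called 28, 9 and 41 higher and 52, 21 and 167 lower. Without a filter 1 was lower, and DESeq2 called 2 lower. limma-voom called 0 higher, log2(TPM + 1) 2 with or without the block, and 0 were higher with mitochondrial genes and PTX4 left out. With the block, DESeq2 called 6 higher and 32 lower, limma-voom 14 and 52, RLE factors 5 and 40, and the fit without mitochondrial genes and PTX4 4 and 39. The block changed no call of a member and, among the genes named from other lists, those of GGT1, MPO and CSF1R.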

Other observations

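MARS1 and NUPR1, chosen after their values were seen, had the least constant ratio of deposited TPM to counts among the 46 genes. Relative to the median gene of each library, the TPM per count of MARS1 was 1.07, 1.07 and 1.08 in PTX4-OE replicates 1 to 3 and 1.06, 1.07 and 1.31 in EV replicates 1 to 3. That of NUPR1 was 1.54, 1.59 and 1.91 in PTX4-OE and 1.54, 1.79 and 1.67 in EV. Their ratios of highest to lowest, 1.23 and 1.24, lay above those of 95.2% and 95.5% of 11673 genes with 100 or more counts in each library. As 2 of 46 genes (4.35%), they are close to the share of all genes beyond these percentiles. In pair 3 MARS1 was lower in PTX4-OE in TPM, at 149 against 170.5 in EV, and higher in CPM, at 275 against 266 in EV.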
